A study of Mus musculus with 10 samples.

Results

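Otx2, Fgf5, Pou3f1, Zic2, Zic5, Sox1, Sox3, Sox11 and Pax6 are genes of primed pluripotency and of the early neuroectoderm, and their transcript levels were followed in mouse embryonic stem (ES) cells treated with an inhibitor of the histone acetyltransferase Kat2a. The 9 genes were chosen by symbol, with earlier results of these data known, and not by a threshold on a measured value. They made up 9 of the 30677 genes of the count table, each found by its Ensembl identifier. TNGA is a mouse ES cell line in which a single Nanog allele drives GFP, and it was grown in serum with leukemia inhibitory factor (LIF), conditions under which ES cells self-renew but vary from cell to cell in how close they are to differentiation. Triplicate cultures were treated for 48 hours with 100 μM MB-3, a small-molecule inhibitor of Kat2a, or with the vehicle dimethyl sulfoxide (DMSO), which was kept at 0.1% of the volume in both arms, and polyA RNA was sequenced from each. The 6 libraries carry the letters A, B and C in each arm, and all come from 1 cell line. Depth was 48144367, 51137896 and 46863700 counts in DMSO libraries A, B and C, and 49334434, 44985772 and 42270312 in MB-3 libraries A, B and C, so that 1 CPM (a count scaled to the TMM-normalized library size) stood for 42.9 to 50.2 reads. The fewest reads of any of the 9 genes in any library were 61, for Sox3 in MB-3 library B, so none was under 10 counts and all 9 passed the filter on low counts.

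The label of the cells was read against markers of ES cells. In CPM per kb of exon, DMSO libraries averaged 299 ± 15.7 (SD, n = 3) for Pou5f1, 264 ± 11.8 for Zfp42, 219 ± 10.9 for Sox2, 118 ± 4.08 for Nanog, 112 ± 3.72 for Esrrb and 28.8 ± 4.31 for Sall4. These genes of pluripotency were all present, and on the same scale each exceeded every one of the 9 genes described here. The libraries are bulk RNA, in which fewer cells that express a gene and less RNA of that gene per cell cannot be told apart.

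ES cells in serum and LIF are thought to move between a naive state and states that resemble the primed epiblast of the implanting embryo, from which the neuroectoderm and the mesendoderm arise. OTX2 and POU3F1 are homeodomain proteins that are switched on in that transition, and FGF5 is a secreted growth factor long used as a marker of the primed epiblast. ZIC2 and ZIC5 are zinc finger proteins of the epiblast and the neural plate. SOX1 and SOX3 are SOXB1 proteins closely related to SOX2 that mark neural progenitors, SOX11 is a SOXC protein of differentiating neural cells, and PAX6 is a paired-domain protein of the forebrain and the eye. Of the 9 genes, then, 8 encode transcription factors and Fgf5 encodes a ligand.

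Promoters are shown for Otx2, Zic5, Pax6 and Fgf5, which moved with MB-3 when the replicate letter was taken into account and have a RefSeq start with no annotated exon in the window. Each window holds the 200 bases from 250 to 51 bases before a RefSeq start on GRCm38.p6, read 5′ to 3′ on the strand of the gene, with every CpG dinucleotide in capitals.
Zic5, chr14:122465709-122465908, minus strand: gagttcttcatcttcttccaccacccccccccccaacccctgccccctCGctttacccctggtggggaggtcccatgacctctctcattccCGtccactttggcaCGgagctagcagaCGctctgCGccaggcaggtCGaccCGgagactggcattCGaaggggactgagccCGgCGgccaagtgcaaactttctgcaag
Pax6, chr2:105668646-105668845, plus strand: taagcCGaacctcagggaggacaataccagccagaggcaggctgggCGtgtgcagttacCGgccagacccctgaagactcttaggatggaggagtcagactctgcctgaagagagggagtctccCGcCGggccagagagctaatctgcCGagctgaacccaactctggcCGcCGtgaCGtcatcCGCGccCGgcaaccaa
Fgf5, chr5:98253934-98254133, plus strand: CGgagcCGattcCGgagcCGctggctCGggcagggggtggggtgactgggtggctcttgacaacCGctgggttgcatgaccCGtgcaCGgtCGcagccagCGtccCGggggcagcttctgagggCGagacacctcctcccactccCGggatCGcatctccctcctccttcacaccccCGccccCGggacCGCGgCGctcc
Otx2, chr14:48667695-48667894, minus strand: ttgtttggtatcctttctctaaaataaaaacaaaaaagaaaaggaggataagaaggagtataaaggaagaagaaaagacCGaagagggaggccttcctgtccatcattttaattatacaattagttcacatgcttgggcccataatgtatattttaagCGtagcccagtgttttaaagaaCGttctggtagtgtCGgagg

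The Fgf5, Zic5 and Pax6 windows were rich in G and C, at 72.0%, 63.0% and 62.0%, with 19, 10 and 12 CpGs. Over 32841 RefSeq promoters the median was 51.5% and 4 CpGs, and 93.6%, 80.7% and 78.7% of promoters had a lower GC content than these 3 windows. The Otx2 window was the AT-rich exception, at 37.0% GC with 4 CpGs, and 8.28% of promoters had a lower GC content. It lies upstream of 1 of several Otx2 starts, at 48667644, and within the longer gene model of GENCODE. The words ATGCAAAT (the octamer bound by POU proteins), ACAAAG (a SOX word), TAATCC (an OTX word) and CACGTG (an E-box) were searched on both strands, do not contain one another, and were in 1.32%, 13.6%, 5.22% and 4.34% of all promoters. None of them was in these 4 windows, which says only that these letters are absent there. Otx2 and Pax6 also have RefSeq starts whose windows hold annotated exons and are not shown. Among those, an OTX word was in the Otx2 window at chr14:48665160-48665359. A SOX word was in the Pax6 window at chr2:105682213-105682412. Of the 9 genes, 6 had an entry in the promoter table, and Zic2, Pou3f1 and Sox3 did not.

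In vehicle-treated cells the 9 genes spanned a wide range of levels. In CPM per kb of exon, Otx2 was at 12.4 ± 0.124 (SD, n = 3 in each case), Zic2 at 11.1 ± 0.703 and Zic5 at 8.06 ± 0.537. Pou3f1 followed at 5.56 ± 1.04, Sox11 at 3.29 ± 0.143 and Fgf5 at 3.26 ± 1.34. Pax6 was at 2.08 ± 0.376, Sox3 at 1.43 ± 0.317 and Sox1, the lowest, at 0.793 ± 0.197. The 3 libraries of neighbours in this order overlapped for Sox11 and Fgf5, for Fgf5 and Pax6, and for Pax6 and Sox3, and did not overlap for the other neighbours. In MB-3 libraries Otx2, at 15.25 ± 0.790, and Zic2, at 15.04 ± 0.828, overlapped. So did Sox3, at 1.06 ± 0.354, and Sox1, at 0.845 ± 0.154. With the longest transcript as the length instead of all exons together, Pax6 in DMSO averaged 5.49, above Sox11 and Fgf5 and below Pou3f1. Its DMSO libraries, at 5.40, 6.52 and 4.54 in the order A, B, C, then overlapped those of Pou3f1 and of Fgf5.

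**Figure D1:**
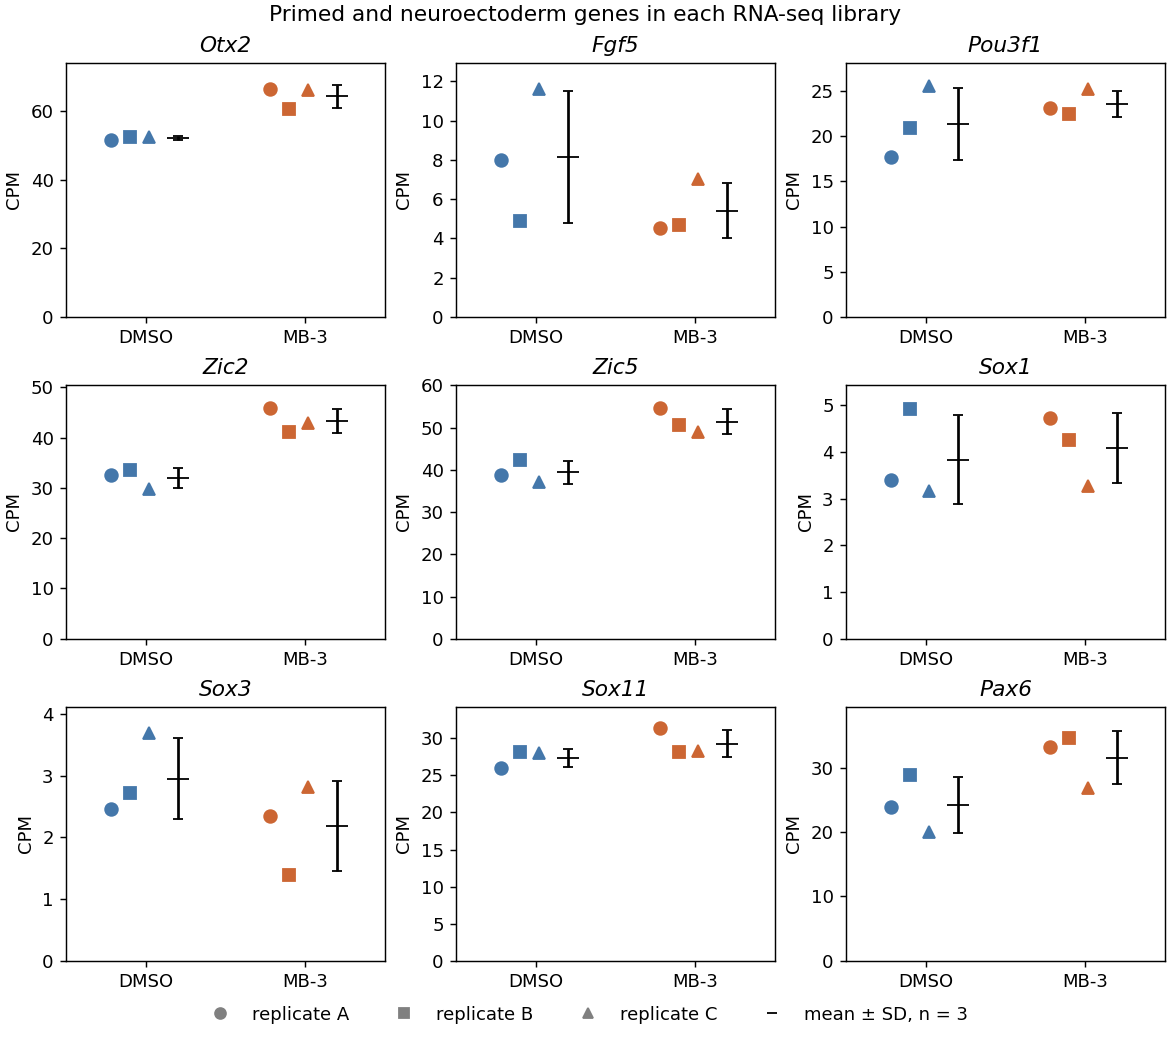
Level of each of the 9 genes in CPM, with 1 point for each of the 3 DMSO and 3 MB-3 libraries, marked by replicate letter, and with the mean ± SD of each group beside its points. The DMSO and MB-3 points of Otx2, Zic2 and Zic5 are set apart, whereas those of Fgf5, Pou3f1, Sox1, Sox3 and Pax6 overlap.

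MB-3 was compared with DMSO to ask whether inhibition of Kat2a moved these genes in self-renewing cells. Zic2 and Zic5 rose by 35.5% and 30.6% in the test with treatment as its only term. With the replicate letter as a block, Otx2 and Pax6 rose too, by 1.23-fold and 1.31-fold, and Fgf5 fell to 0.678 of its DMSO level. Pou3f1, Sox1, Sox3 and Sox11 did not pass the threshold in either fit. By treatment alone, 2 of the 9 genes passed (22.2%), against 0.205% of all 20027 genes tested (0.0999% higher and 0.105% lower). With the block, 5 of the 9 passed, 4 higher and 1 lower, against 7.12% of all genes (3.22% higher and 3.9% lower). The median log2 fold change of the 9 genes was 0.14, and that of all genes tested was -0.0011. The median of the 9 was 0.063, 0.31 and 0.26 without DMSO library A, B or C, 0.23 without MB-3 library C, and 0.039, 0.27 and 0.24 in the block without pair A, B or C. Both fits used the quasi-likelihood test of edgeR, and p-values were adjusted over all genes by Benjamini and Hochberg's method, with 0.05 as threshold. By treatment alone, the 2 calls among the 9 genes were 0 without DMSO library A, DMSO library C, MB-3 library A or MB-3 library B, and 5 without DMSO library B. Over all genes these fits called 3, 5, 0, 0 and 520. The 9 genes were chosen with earlier results known, so their contrasts with all genes are a description and not a test. The shares of all genes are also the background for the lists below. By edgeR with treatment alone, 2182 of the 20027 genes were at an unadjusted p under 0.05, and 9954 had a fold change above 0.

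Otx2, a homeobox gene that acts early in the exit from the naive state, lies on GRCm38 at chr14:48657677-48673819 on the minus strand (ENSMUSG00000021848). It measured 51.6, 52.4 and 52.5 CPM in DMSO libraries A, B and C, and 66.3, 60.5 and 66.2 CPM in MB-3 libraries A, B and C. All 3 MB-3 libraries were above all 3 DMSO libraries, which spread over less than 1 CPM. The means were 52.2 ± 0.522 and 64.4 ± 3.34 CPM (SD, n = 3), with a log2 fold change of 0.30 (SE 0.059, 95% interval 0.18 to 0.43). By edgeR with treatment alone the adjusted p was 0.0611, just above the threshold, and with the replicate block it was 0.000131. Without DMSO library B the treatment-only fit called it, at an adjusted p of 0.0209 by edgeR, in a fit that called 520 genes. Otx2 did not pass without any other single library. Its adjusted p by edgeR then ran from 0.135 (without MB-3 library C) to 0.397 (without MB-3 library A). A noncoding gene on the opposite strand, Otx2os1, shares 154 exonic bases with Otx2 and had 2 to 13 counts in a library, beside at least 2482 for Otx2. Groups that do not overlap, as for Otx2, were seen in 4 of the 9 genes, all higher in MB-3, against 15.6% of all genes tested (8.22% higher and 7.37% lower).

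At the Otx2 locus the H3K9ac peak lists give a position on the older build mm9. H3K9ac is a histone mark of active promoters that Kat2a deposits, and the lists give 1 set of positions per treatment, made from merged duplicates, with no score. With no mm9 annotation used here, a peak was linked to Otx2 through the gene name that the study gave it. In MB-3 cells it spanned chr14:49281938-49282269, 332 bp, and lay inside a DMSO peak at chr14:49281690-49282289, 600 bp. A further DMSO peak of 478 bp at chr14:49275086-49275563, 6374 bp away, had no partner in the MB-3 list, whose nearest other peak was 404258 bp away. Peaks were narrower in MB-3 in general, with a median width of 416 bp over 4673 peaks beside 528 bp over 11724 in DMSO. So a peak remained at Otx2 while its transcript was higher in MB-3. With 1 merged list per treatment this has no replicate check, and peaks were not assigned to the other 8 genes here.

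Fgf5, at chr5:98254184-98277030 on the plus strand (ENSMUSG00000029337), moved the other way. It measured 7.997, 4.88 and 11.6 CPM in DMSO libraries A, B and C, and 4.52, 4.69 and 7.04 CPM in MB-3 libraries A, B and C. DMSO library B was near the 2 lower MB-3 libraries and below the third, so the groups overlapped, and the coefficient of variation of 41.2% in DMSO was the largest among the 9 genes. The means were 8.16 ± 3.36 and 5.42 ± 1.41 CPM (SD, n = 3), and the log2 fold change was -0.59 (SE 0.25, 95% interval -1.13 to -0.06), with an adjusted p of 0.401 by edgeR with treatment alone. With the block the log2 fold change was -0.56 (SE 0.11) and the adjusted p by edgeR was 0.0014. Within letters the log2 ratio was -0.81 in A, -0.06 in B and -0.71 in C, so that pair B showed almost no fall. Without DMSO library B the treatment-only value was -0.86, with an adjusted p of 0.0137 by edgeR. Without DMSO library C it was -0.25, with an adjusted p of 0.847 by edgeR.

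Pou3f1, also known as Oct6, a POU factor of the primed epiblast, lies at chr4:124656807-124660655 on the plus strand (ENSMUSG00000090125). It measured 17.7, 20.9 and 25.6 CPM in DMSO and 23.1, 22.5 and 25.3 CPM in MB-3, in the order A, B, C. The groups overlapped, and DMSO library C was the highest of the 6. The log2 fold change was 0.14 (95% interval -0.10 to 0.38, adjusted p by edgeR 0.675), and 0.15 with the block (adjusted p 0.187). Without DMSO library A the value was 0.021 and without DMSO library C it was 0.29. In the block it was 0.039 without pair A, and 0.24 without pair C, where it passed with an adjusted p of 0.0413 by edgeR. Of the 3 markers of the primed epiblast, then, Otx2 was higher and Fgf5 lower with the block, and Pou3f1 passed in neither fit of all 6 libraries. Gm2164, which overlaps Pou3f1 on the opposite strand over 330 exonic bases, had 0 to 3 counts in a library.

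Zic2 and Zic5 were the 2 genes called by treatment alone. They lie head to head on chromosome 14, with start sites 9758 bp apart and no protein-coding gene between them. Zic2, at chr14:122475435-122479852 on the plus strand (ENSMUSG00000061524), measured 32.6, 33.6 and 29.7 CPM in DMSO libraries A, B and C, and 45.9, 41.2 and 42.8 CPM in MB-3. The lowest MB-3 library was well above the highest DMSO library. The means were 32.0 ± 2.03 and 43.3 ± 2.39 CPM (SD, n = 3), and the log2 fold change was 0.44 (SE 0.070, 95% interval 0.29 to 0.59), with an adjusted p of 0.0311 by edgeR and of 2.02e-06 with the block.

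Zic5, at chr14:122456795-122465677 on the minus strand (ENSMUSG00000041703), measured 38.7, 42.3 and 37.2 CPM in DMSO and 54.8, 50.6 and 48.9 CPM in MB-3, in the order A, B, C. Here too the groups did not overlap. The means were 39.4 ± 2.62 and 51.4 ± 2.998 CPM (SD, n = 3), with a log2 fold change of 0.38 (SE 0.069, 95% interval 0.24 to 0.53) and an adjusted p of 0.0485 by edgeR, or 9.38e-06 with the block. The treatment-only call of Zic5 was lost with upper quartile normalization (adjusted p 0.0514), with a filter of 1 CPM in 3 libraries (0.0563) and with limma-voom (0.0655). By treatment alone, neither gene passed without DMSO library A (edgeR adjusted p of 0.0915 for Zic2 and 0.134 for Zic5), without DMSO library C (0.12 and 0.173), without MB-3 library A (0.254 and 0.352) or without MB-3 library B (0.165 and 0.235), with log2 fold changes from 0.39 to 0.47 for Zic2 and from 0.34 to 0.39 for Zic5. With the block, both passed without any 1 of the 3 pairs.

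**Figure D2:**
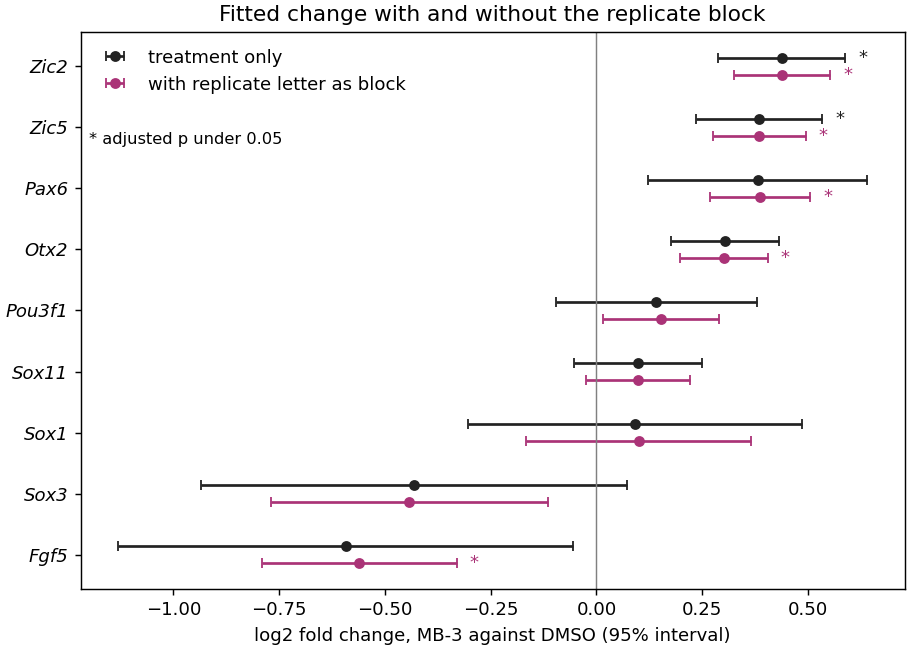
Fitted log2 fold change of MB-3 over DMSO for each gene with its 95% interval, with treatment as the only term and with the replicate letter as a block, and an asterisk where the adjusted p was under 0.05. The intervals of Fgf5, Sox3 and Pax6 were narrower with the block, and those of Sox1 and Sox11 crossed 0 in both fits.

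Sox1, the earliest of the SOX markers of committed neuroectoderm, was the lowest of the 9 genes per length (chr8:12395295-12400126, plus strand, ENSMUSG00000096014). It measured 3.41, 4.92 and 3.17 CPM in DMSO and 4.72, 4.26 and 3.27 CPM in MB-3, in the order A, B, C. The groups overlapped throughout, and the highest library was a DMSO one. The log2 fold change was 0.09, with a 95% interval of -0.30 to 0.49, and it turned below 0 without DMSO library C (-0.027), without MB-3 library A (-0.027) and, with the block, without pair A (-0.10). Sox1ot, a noncoding gene that overlaps Sox1 on the same strand with no shared exonic base, had 7 to 22 counts in a library.

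Sox3, the X-linked SOXB1 gene (chrX:60891366-60893430, minus strand, ENSMUSG00000045179), measured 2.45, 2.71 and 3.69 CPM in DMSO and 2.35, 1.39 and 2.82 CPM in MB-3, in the order A, B, C. MB-3 library B was the lowest, on 61 reads, and MB-3 library C was above 2 of the DMSO libraries. The log2 fold change was -0.43 (95% interval -0.93 to 0.07, adjusted p by edgeR 0.525), and -0.44 with the block (adjusted p 0.0948). The value was -0.19 without MB-3 library B, -0.24 without DMSO library C and -0.65 without MB-3 library C. In the block it was -0.23 without pair B, and -0.64 without pair A, the 1 alternative in which it passed (adjusted p of 0.0271 by edgeR). Sox11 (chr12:27334264-27342574, minus strand, ENSMUSG00000063632) measured 26.0, 28.1 and 27.98 CPM in DMSO and 31.4, 28.2 and 28.3 CPM in MB-3. The MB-3 libraries were above the DMSO libraries, but 2 of them by under 1 CPM, and the log2 fold change of 0.10 (95% interval -0.05 to 0.25) had an adjusted p of 0.64 by edgeR and 0.383 with the block. It was 0.046 without MB-3 library A, 0.063 without DMSO library A and 0.0077 in the block without pair A.

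Pax6 (chr2:105668900-105697364, plus strand, ENSMUSG00000027168) measured 23.9, 28.9 and 20.1 CPM in DMSO libraries A, B and C, and 33.3, 34.7 and 26.9 CPM in MB-3 libraries A, B and C. In both groups library C was the lowest and library B the highest, and MB-3 library C was below DMSO library B, so the groups overlapped. Within every letter the MB-3 library was higher, with log2 ratios of 0.48, 0.27 and 0.42. The means were 24.3 ± 4.39 and 31.6 ± 4.16 CPM (SD, n = 3). The log2 fold change was 0.38 (SE 0.12, adjusted p by edgeR 0.258) with treatment alone and 0.39 (SE 0.058, adjusted p 2.79e-05) with the block. Without DMSO library B the treatment-only value was 0.52, with an adjusted p of 0.0116 by edgeR, in a fit that called 520 genes. Pax6 did not pass without any other single library. Its adjusted p by edgeR then ran from 0.131 (without MB-3 library C, 0.48) to 0.678 (without DMSO library C, 0.26). In DMSO the order of the libraries for Pax6, B over A over C, was the reverse of that for Fgf5.

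**Figure D3:**
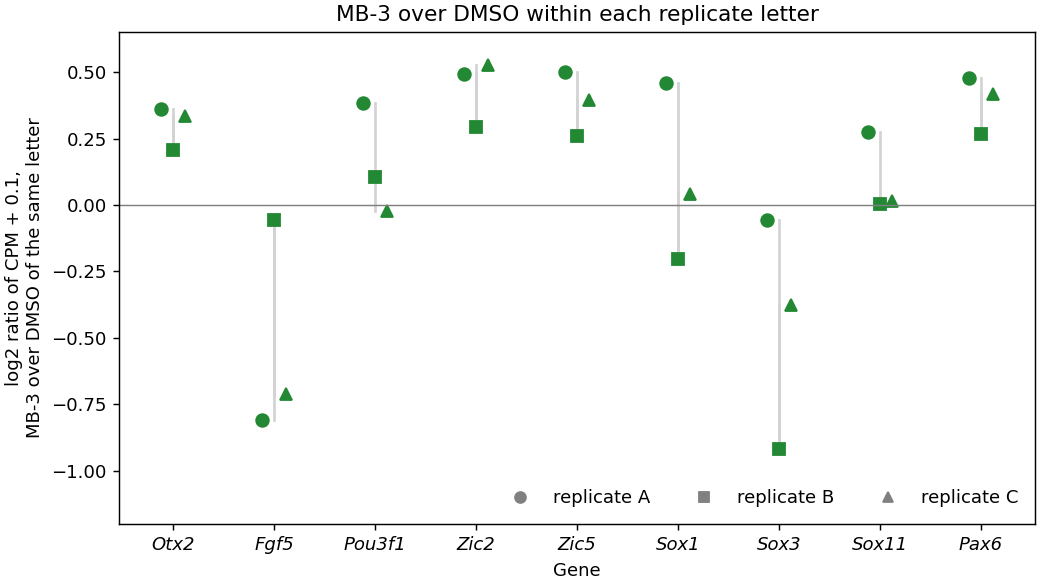
Log2 ratio of CPM + 0.1 of MB-3 over DMSO within each replicate letter, with 1 point per letter for each of the 9 genes. Otx2, Zic2, Zic5 and Pax6 are above 0 in all 3 letters and Fgf5 is below 0 in all 3, with letter B nearest to 0 in each of these 5 genes.

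Of the 9 genes, 7 were on the same side in all 3 letters, against 40.6% of all genes tested. Otx2, Zic2, Zic5, Sox11 and Pax6 were higher in MB-3 in all 3 pairs, as were 20.2% of all genes. Pair B gave the smallest ratio for each of Otx2 (0.21 on the log2 scale), Zic2 (0.29), Zic5 (0.26), Pax6 (0.27) and Sox11 (0.00). Fgf5 and Sox3 were lower in all 3 pairs. Sox1 and Pou3f1 changed sign between pairs, with a ratio of 0.46 in A and -0.21 in B for Sox1, and of 0.38 in A and -0.02 in C for Pou3f1.

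The genes closest to these 9 by family differed widely in level. In CPM per kb of exon, Otx1 was at 0.027 in DMSO beside 12.4 for Otx2, and Crx had at most 1 read in a library. Zic1 was at 0.033 and Zic4 had no reads in DMSO. Sox2, the SOXB1 gene of pluripotency, was at 219 ± 10.9 in DMSO and 222 ± 2.78 under MB-3 (SD over 3 libraries), with a log2 fold change of 0.02 (95% interval -0.11 to 0.14). Of the SOXC genes, Sox12 was at 17.3 and Sox4 at 3.09 in DMSO, and neither passed in either fit. Pou3f2, Pou3f3 and Pou3f4 were at 0.011, 0.019 and 0.061 in DMSO beside 5.56 for Pou3f1.

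Of the 16 such relatives in the table, 9 passed the filter and 1 was called by treatment alone, Sox21, a SOXB2 gene that counteracts SOXB1 proteins in neural progenitors. It measured 6.36, 7.12 and 6.46 CPM in DMSO and 9.64, 10.1 and 9.65 CPM in MB-3 in the order A, B, C, a log2 fold change of 0.56 (SE 0.093, adjusted p by edgeR 0.0358, and 0.051 by limma-voom). Its groups were far apart, though it shares 713 exonic bases with Gm4675 on the opposite strand. With the block Fgf4, the FGF of self-renewing ES cells, rose (log2 fold change of 0.17, adjusted p 0.0227) and Fgf8, an FGF of the primitive streak and the neural plate, fell (from 2.87 ± 1.76 to 0.641 ± 0.400 CPM, log2 fold change of -2.15, adjusted p 6.63e-09). Of the 4 FGF receptor genes, through which FGF5 would act, 0 passed by treatment alone in edgeR, with 1 at an unadjusted p under 0.05 (1 called by DESeq2, 0 by limma-voom). With the block Fgfr2, whose gene model shares 314 exonic bases with Ctbp2, rose by 0.37 on the log2 scale (16.95 ± 1.02 to 21.85 ± 0.401 CPM, adjusted p 0.000296, or 0.0644 by treatment alone).

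Of 20 other genes of primed or formative pluripotency, all tested, 2 rose by treatment alone (10.0%) and 0 fell by edgeR. At an unadjusted p under 0.05, 13 were higher and 1 lower (2 rose and 1 fell by DESeq2, 1 and 0 by limma-voom after adjustment), and 17 had a fold change above 0, with a median log2 fold change of 0.19. The 2 called, Dnmt3a and Dnmt3b, encode de novo DNA methyltransferases. Dnmt3b measured 341, 355 and 341 CPM in DMSO and 425, 437 and 433 CPM in MB-3, a log2 fold change of 0.32 (SE 0.053, adjusted p by edgeR 0.0358). Dnmt3a rose by 0.34 on the log2 scale, from 68.4 ± 2.80 CPM in DMSO to 86.4 ± 3.43 CPM (SD, n = 3, adjusted p by edgeR 0.0485, and 0.0514 with upper quartile normalization or 0.0624 by limma-voom). The groups did not overlap for either gene. Against 7.12% of all genes, 11 of the 20 passed with the block (55.0%). Of these, 9 rose, among them Lef1, a nuclear effector of Wnt signalling (0.60, adjusted p 0.00266), and Tcf15, a bHLH gene of cells primed for differentiation (0.36, adjusted p 0.000146), and 2 fell, Cdh2, which encodes N-cadherin (-0.65, adjusted p 1.56e-05), and Cldn6, which encodes a claudin (-0.17, adjusted p 0.0282). Dnmt3a and Lef1 share 133 and 1208 exonic bases with genes on the opposite strand, and without strand the reads of such partners cannot be told apart. Every treatment-only call named here was lost without MB-3 library A or MB-3 library B, and the 4 calls among these related genes were also 0 without DMSO library A or C, 14 without DMSO library B and 2 without MB-3 library C.

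Many genes of neural progenitors were at or near 0. Of 27 in the table, 13 did not pass the filter, and 8 were under 10 counts in every library, among them Six3, Pax2, Dbx1 and Olig2. Of the 14 tested, 0 were called by edgeR with treatment alone, and 0 by DESeq2 or limma-voom. At an unadjusted p under 0.05 in edgeR, 1 was higher (Gbx2) and 3 were lower (Nes, Hes1 and Msi1), beside 2182 of all 20027 genes. The median log2 fold change was nonetheless 0.21, and 9 of the 14 were above 0, as were 9954 of all genes tested. The summed level of the list was 115, 110 and 132 CPM in DMSO libraries A, B and C, and 103, 98.3 and 109 CPM in MB-3. Nes was the most abundant in CPM. It made up 40.0, 29.2 and 62.2 CPM of the sum in DMSO and 24.7, 20.8 and 34.5 CPM in MB-3. With the block Gbx2, a homeobox gene of the midbrain-hindbrain boundary that ES cells also express and that shares 946 exonic bases with a noncoding gene on the opposite strand, rose (14.9 ± 3.65 to 19.7 ± 1.66 CPM, log2 fold change of 0.42, adjusted p 0.000324), while Nes, which encodes nestin (43.8 ± 16.8 to 26.7 ± 7.07 CPM, log2 fold change of -0.68, adjusted p 1.38e-09), and Hes1, a target of Notch (-0.28, adjusted p 0.00369), fell. Among 12 neuronal genes, 8 were tested and 1 rose by treatment alone, Neurod1, a bHLH gene of differentiating neurons, with 15.4, 15.6 and 13.9 CPM in DMSO and 20.5, 20.5 and 19.1 CPM in MB-3 (log2 fold change of 0.42, SE 0.076, adjusted p by edgeR 0.0485). Neurod1 was also the 1 call by DESeq2, and it missed the threshold with limma-voom (adjusted p 0.0655), upper quartile normalization (0.0514) and the 1 CPM filter (0.056). Its exons overlap those of Cerkl and Gm26755. With the block Elavl4, an RNA-binding protein gene of neurons, also rose (0.55, adjusted p 0.00533), and the median of the 8 was 0.06.

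**Figure D4:**
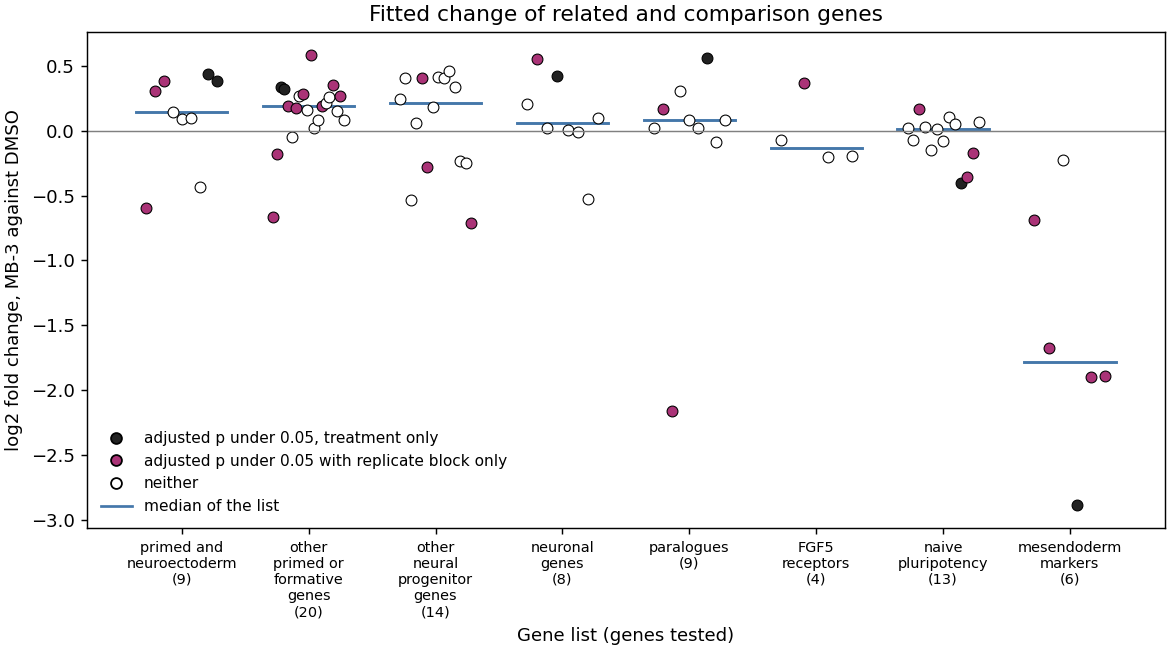
Fitted log2 fold change of MB-3 over DMSO by edgeR for the tested genes of each list, 1 point per gene, with a line at the median of the list. The median lies above 0 for the primed lists and for neural progenitor genes, near 0 for naive pluripotency genes, and at -1.78 for mesendoderm markers.

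Markers of other states moved in the same libraries. Of 13 naive pluripotency genes, 1 fell by treatment alone, Tbx3 (67.6 ± 2.35 to 51.2 ± 1.79 CPM, adjusted p by edgeR 0.0243), and the list's median was 0.01. At an unadjusted p under 0.05 by edgeR, 4 of the 13 were lower and 1 was higher, beside 2182 of all 20027 genes. After adjustment, DESeq2 called 2 of the 13 lower and limma-voom 1. With the block 1 of these rose, Fgf4, and 3 fell, Tbx3, Tfcp2l1 and Tcl1. Tbx3 shares 115 exonic bases with Tbx3os1 on the opposite strand. Of the core genes Pou5f1, Sox2 and Sall4, Sall4 rose with the block. Of 8 mesendoderm markers, 6 were tested, and the median log2 fold change was -1.78 by treatment alone and -1.76 with the block. At an unadjusted p under 0.05 by edgeR with treatment alone, 5 of the 6 were lower and 0 higher. After adjustment, DESeq2 called 2 of the 6 lower and limma-voom 0. By treatment alone 1 fell, Lhx1 (adjusted p by edgeR 0.0243, and 0.0624 by limma-voom), and 5 fell with the block, the largest changes being those of Lhx1 (-2.87, adjusted p 1.13e-06), Mixl1 (-1.84, adjusted p 2.19e-06), T (-1.82, adjusted p 1.47e-14) and Evx1 (-1.71, adjusted p 0.00695). Evx1 shares 73 exonic bases with Evx1os on the opposite strand. Their summed level was 26.7, 16.2 and 48.9 CPM in DMSO libraries A, B and C, and 10.4, 8.13 and 14.1 CPM in MB-3. The most abundant in CPM, T, which encodes Brachyury, was at 19.3 ± 11.95 and 5.23 ± 1.99 CPM. In DMSO the sum was highest in C and lowest in B, as was Fgf5, whereas Pax6 was highest in B and lowest in C, and the part of mesendoderm cells in these results was not tested.

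Markers of cell types outside the ES cell lineage were low. The 6 extraembryonic endoderm markers in the table summed to 9.22, 8.37 and 11.9 CPM in DMSO and 7.76, 8.33 and 9.35 CPM in MB-3. Dab2 was the most abundant in CPM, and Sox17 was at 0.069 CPM in DMSO. Of 4 tested genes, 0 were called in either fit by edgeR, with 0 at an unadjusted p under 0.05, and 0 by DESeq2 or limma-voom. The 8 fibroblast markers summed to 9.51, 8.02 and 10.7 CPM in DMSO and 6.57, 6.79 and 6.90 CPM in MB-3. Thy1 was the most abundant in CPM, and Lum and Postn were each below 0.05 CPM in DMSO. Of 6 tested, 0 were called by edgeR with treatment alone, with 3 at an unadjusted p under 0.05 (1 called by DESeq2, 0 by limma-voom), and 2 fell with the block, Col1a1 and Col1a2. The 5 neural crest markers summed to 22.8, 24.1 and 24.3 CPM in DMSO and 24.9, 25.8 and 28.9 CPM in MB-3. Foxd3, which is also a gene of primed cells, was the most abundant in CPM. Of 4 tested, 0 were called by edgeR with treatment alone, with 2 at an unadjusted p under 0.05, and 0 by DESeq2 or limma-voom, and with the block Foxd3 rose and Ets1 fell. Fgf4, Foxd3 and Sox2 each stand in 2 of these lists. The part of such cells in the values of the 9 genes was not tested.

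For each of the 9 genes, the gene whose pattern over the 6 libraries was most alike was sought among 12066 genes with a mean of at least 5 CPM, by Pearson correlation of log2(CPM + 0.1), as a description in which the treatment is part of the pattern. Otx2 was closest to Cdh3, which encodes P-cadherin, at r = 0.99, and Cdh3 itself rose from 32.8 ± 0.496 to 42.1 ± 2.69 CPM (adjusted p by edgeR 0.0488). Zic2 was closest to Zfp553, Zic5 to Mtcl1, Pax6 to Tmem106a, Fgf5 to Dzip1l and Sox11 to Map3k12. Sox3 was closest to 2500004C02Rik, Sox1 to the pseudogene Hspe1-ps3, and Pou3f1 to Efs, or to Chn1 on the scale of log2(CPM + 1), where the other 8 partners were the same. Correlations over 0.95 were common, with 13 genes for Sox11, 17 each for Sox1 and Pou3f1, 91 for Zic2 and 116 for Fgf5, so that each such partner is 1 of many.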

How the data were processed

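RNA-seq of TNGA cells was analysed in 6 libraries, grouped by the treatment and letter in their labels. Raw counts for each Ensembl gene were deposited by the authors, who had trimmed the single-end polyA reads and used Bowtie (build mm10) for alignment and GenomicAlignments for exon counting. Versions, annotation release and strand setting are not given in the sources used here. The table has 0 rows without a gene and 0 columns left unused. For ChIP-seq the authors merged duplicates aligned to mm9 with BWA, called peaks with MACS2 against input and deposited peak positions, which were not converted to GRCm38. Symbols, positions and exon lengths came from GENCODE M21 on GRCm38, which mm10 denotes (30540 of 30677 identifiers matched), and promoters from RefSeq.

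Genes were filtered with filterByExpr (minimum count 10), normalized by TMM and tested with glmQLFit and glmQLFTest in edgeR 4.0.16 (R 4.3.3), with treatment as the only term and p-values adjusted by the Benjamini-Hochberg method over 20027 genes. A standard error is the size of the log2 fold change over the square root of F. The median standard error was 0.101, and 0.0823 with the block. CPM use the TMM-scaled library size. Levels of the 9 genes, of their relatives and of the ES cell markers were compared after division by exon length. The most abundant gene of a list was picked by CPM, without that division. The cultures were treated in triplicate, and p-values measure the spread between these libraries. No pair of replicates agreed within sampling noise (chi-square per gene of at least 8.39). The labels do not say what a letter stands for. Deviations of libraries with the same letter from their group means correlated, over genes, at 0.115 (A), 0.287 (B) and 0.232 (C), each above the 0.1 set as the limit for pairing and above any correlation between different letters, so the letters were taken to pair the libraries. Tables were made in Python 3.11.15 (pandas 2.3.3, numpy 2.4.6, scipy 1.17.1, matplotlib 3.10.9). The tests were checked on simulated counts that held treatment effects but no effect of the letter, so paired data were not covered.

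The 9 genes and the gene lists were chosen with earlier results of these data known. The genes named were the 9; from each list those past the threshold in either fit, up to the 4 largest changes in each direction; relatives by family; the gene most alike; genes overlapping one of the 9; and the most abundant and the near-absent markers of control lists. Wnt1, Pax4 and Afp were not analysed here, and the values of 1 relative are not reported here. The alternatives were RLE and upper quartile normalization, 2 other filters, DESeq2 1.42.0, limma-voom (limma 3.58.1), edgeR's robust option, the block, the block without each pair, and each library left out.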

Additional observations from a re-analysis of the deposited data

How the results depend on the processing

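The directions of the 9 genes were kept in all 19 alternatives except for Sox1, whose log2 fold change was -0.10 in the replicate block without pair A, -0.027 without DMSO library C and -0.027 without MB-3 library A (-0.027 to 0.32 with 1 library left out). Zic2 passed the threshold in 15 of 19 alternatives, Zic5 in 12, Otx2 in 10, Fgf5 and Pax6 in 7 each, Sox3 and Pou3f1 in 1 each, and Sox1 and Sox11 in 0. Without the block the fits that called Otx2 were 4 of 13 and those that called Fgf5 or Pax6 were 1 of 13. The number of genes called, 41, was 25 with upper quartile normalization, 24 with a filter of 1 CPM in 3 libraries, 18 with limma-voom, 66 with edgeR's robust option, 192 with DESeq2, 194 with no filter, 1425 with the replicate block, 939, 912 and 1037 with the block without pair A, B or C, and 0 to 520 with 1 library left out. The 2 fits with 0 calls, without MB-3 library A or B by edgeR, still had 1440 and 1716 genes at an unadjusted p under 0.05. The number of the 9 genes called, 2, was 1 with upper quartile normalization, the 1 CPM filter or limma-voom, 5 with the block, 6, 5 and 6 with the block without pair A, B or C, and 0 to 5 with 1 library left out. The 4 calls among related lists became 2 with upper quartile normalization, 7 with no filter, 1 with limma-voom, 20 with the block, 16, 19 and 14 with the block without pair A, B or C, and 0 to 14 with 1 library left out. DESeq2 and limma-voom with the block were added after seeing the data and called 626 and 1468 genes, 5 and 5 of the 9, and 13 and 20 in related lists. The cause of these differences was not tested. Depth limits Sox3 most, with 61 to 176 reads a library.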
